A study of Homo sapiens with 60 samples.

Results

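The 7 genes described here belong to the prostaglandin E2 pathway: PTGS2, PTGES, PTGES2, HPGD, PLA2G4A, PTGER2 and PTGER4. They were taken by name from a count table of 60675 gene identifiers, all 7 were found, and all 7 passed the low-count filter. The table held RNA sequencing of A549, an established human lung adenocarcinoma line, after 24 h with water extracts of herbs or with vehicle. Earlier results of these data were known when the genes were listed, among them that PTGS2 was low at the high dose of Bupleuri, so the list was in part chosen by the PTGS2 levels at high dose against vehicle. Those levels are given as a description, without a p-value.

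Groups had 3 libraries each. Water extracts of Citri Unshius Pericarpium, Cimicifugae Rhizoma, Bupleuri Radix, Yijung-tang and Banhasasim-tang were used at 20, 100 and 500 µg/mL. Aconiti Lateralis Radix Preparata was used at 14.4, 72 and 360 µg/mL, because an extract with an IC20 under 500 µg/mL was given at its IC20 and at dilutions of it. These doses are called low, medium and high, and extracts are called by their opening word. Bojungikgi-tang, at 20, 100 and 500 µg/mL, had 1 library per dose. The vehicle was DMSO, labelled as 0.1% on the samples but as 2% in the series' design text. The sample labels give a DMSO percentage for the vehicle libraries only. A difference in solvent and an effect of an extract against vehicle thus cannot be told apart from them. Sample numbers in the labels begin with 5 for Citri and Cimicifugae and with 6 for Bupleuri and Aconiti. Those of Yijung and Banhasasim begin with 7, and those of the vehicle with B1. Samples sharing this opening number are called a set here, and what the number stands for is not stated. The titles of all libraries, vehicle included, carry the same words Second BatchB. A difference between sets and an effect of an extract against vehicle cannot be told apart from these labels alone. Nothing in the labels says whether the 3 libraries of a group came from separate cultures, so the p-values measure the spread between these libraries, which may be technical.

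Library totals ran between 17793680 and 30188212 counts with a median of 25758935. All 12 markers listed for the A549 epithelial line averaged over 1 CPM and summed to between 19710 and 27840 CPM per library. Of the alveolar type II markers, 2 of 8 did so (NAPSA and ABCA3), and the surfactant genes were at or near 0. Of 8 leukocyte markers 2 averaged over 1 CPM (CD68 with 6.59 CPM and CD14 with 1.81 CPM), while CD3E and MS4A1 were at 0 in all 60 libraries. Of 6 fibroblast markers 2 averaged over 1 CPM (COL1A1 with 31.3 CPM and COL3A1 with 1.71 CPM), while COL1A2, DCN and PDGFRB averaged under 0.2 CPM. Of 4 endothelial markers none averaged over 1 CPM. Mitochondrially encoded genes took between 16.5% and 18.95% of counts at the Aconiti high dose and between 13.5% and 15.2% at the medium dose, against 6.32% to 10.1% in all other libraries, and with these genes removed before scaling every Aconiti call of a member was kept except that of PTGER4. Scaling on total counts without TMM factors, tried after the values had been seen, moved the median log2 fold of all genes at Aconiti high against vehicle to −0.16, where it was −0.0046 with TMM, and to −0.14 against Aconiti low, where it was −0.013. The Aconiti values below are relative to the TMM scaling, and for part of them the value on total counts is given beside. The library Citri medium 1 stood apart. Its length balance, the mean log2 CPM of genes with transcripts longer than 6000 bases minus that of genes with transcripts shorter than 1500 bases, was the lowest with −0.74, against 0.35 to 0.56 in vehicle.

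Prostaglandin E2 is made from arachidonic acid. Cytosolic phospholipase A2, encoded by PLA2G4A, releases the acid from membrane lipids, and cyclooxygenase-2, encoded by PTGS2, turns it into prostaglandin H2. PTGES and PTGES2 encode prostaglandin E synthases that make prostaglandin E2 from it, and HPGD encodes the dehydrogenase that inactivates the product. PTGER2 and PTGER4 encode the receptors EP2 and EP4, which raise cyclic AMP. PTGS2 is known as a gene quickly induced by growth factors and inflammatory signals, and its message is short-lived.

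PTGS2 (ENSG00000073756) lies on GRCh38 chromosome 1 between 186671791 and 186680427 on the minus strand, and PLA2G4A (ENSG00000116711) lies between 186828953 and 186988981 on the plus strand. The genes are 148525 bp apart, and 1 annotated gene lies between them, the antisense RNA gene PACERR, which averaged 0.303 CPM. The 250 bases before their RefSeq starts are shown because these genes are neighbours and both were low in Bupleuri and Cimicifugae. The window of PTGS2 is chr1:186680424-186680673 on the minus strand and that of PLA2G4A is chr1:186828699-186828948 on the plus strand, both on GRCh38.p14, with matches to searched motifs in capitals.
PTGS2: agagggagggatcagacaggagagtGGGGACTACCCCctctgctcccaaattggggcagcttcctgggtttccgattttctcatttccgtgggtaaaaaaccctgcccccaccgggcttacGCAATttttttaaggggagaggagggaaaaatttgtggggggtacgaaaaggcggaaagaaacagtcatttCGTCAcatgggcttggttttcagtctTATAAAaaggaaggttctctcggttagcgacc
PLA2G4A: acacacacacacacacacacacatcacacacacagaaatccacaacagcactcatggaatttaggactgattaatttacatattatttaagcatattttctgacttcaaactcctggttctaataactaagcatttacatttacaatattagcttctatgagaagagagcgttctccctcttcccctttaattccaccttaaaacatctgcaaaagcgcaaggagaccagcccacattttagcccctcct
Both strands were searched for 6 motifs: the TATA box TATAAA, the cyclic AMP response element core TGACG, the C/EBP core GCAAT, the NF-kB motif GGGNNNNNCC, the AP-1 motif TGANTCA and the xenobiotic response core GCGTG. The PTGS2 window held a TATA box 32 to 27 bases before the start, a cyclic AMP core on the other strand 58 to 54 bases before it, a C/EBP core 129 to 125 bases before it, and 4 overlapping NF-kB matches between 225 and 214 bases before it. The PLA2G4A window held none of the 6. Of 35116 RefSeq promoter windows of this length, 10.7% held the TATA box, 21.2% the cyclic AMP core, 21.3% the C/EBP core, 54.4% the NF-kB motif, 6.57% the AP-1 motif and 32.2% the xenobiotic core. A match describes the letters and is not a bound site.

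Levels are given in CPM, counts scaled to the size of the library with TMM factors. Per kilobase of annotated exon, the vehicle level was highest for PTGES2 with 20.6 CPM per kb, then HPGD with 13.8, PLA2G4A with 10.8, PTGES with 8.97 and PTGS2 with 3.79 CPM per kb. The receptors were the lowest, PTGER4 with 0.349 and PTGER2 with 0.141 CPM per kb. PTGER2 had between 1 and 22 counts and PTGER4 between 18 and 48 counts in a library, so small changes of either receptor were not detectable at this depth.

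PTGS2 was low at the high doses of Bupleuri and Cimicifugae and high at the medium and high doses of Yijung. In Yijung the low-dose libraries had 18.2, 20.0 and 18.6 CPM, which overlapped vehicle. At the Yijung medium dose the libraries had 37.2, 38.8 and 39.5 CPM, against 19.7, 18.9 and 21.3 CPM in vehicle. All 3 lay above every other library of the 19 groups, with a mean of 38.5 ± 1.19 CPM against 20.0 ± 1.19 CPM in vehicle (SD, n = 3 each) and a log2 fold of 0.95 ± 0.10 (SE). At the Yijung high dose they had 30.0, 24.9 and 31.4 CPM, above all vehicle libraries and below all medium-dose ones. The log2 fold of the high dose against vehicle was 0.53 ± 0.10.

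**Figure D1:**
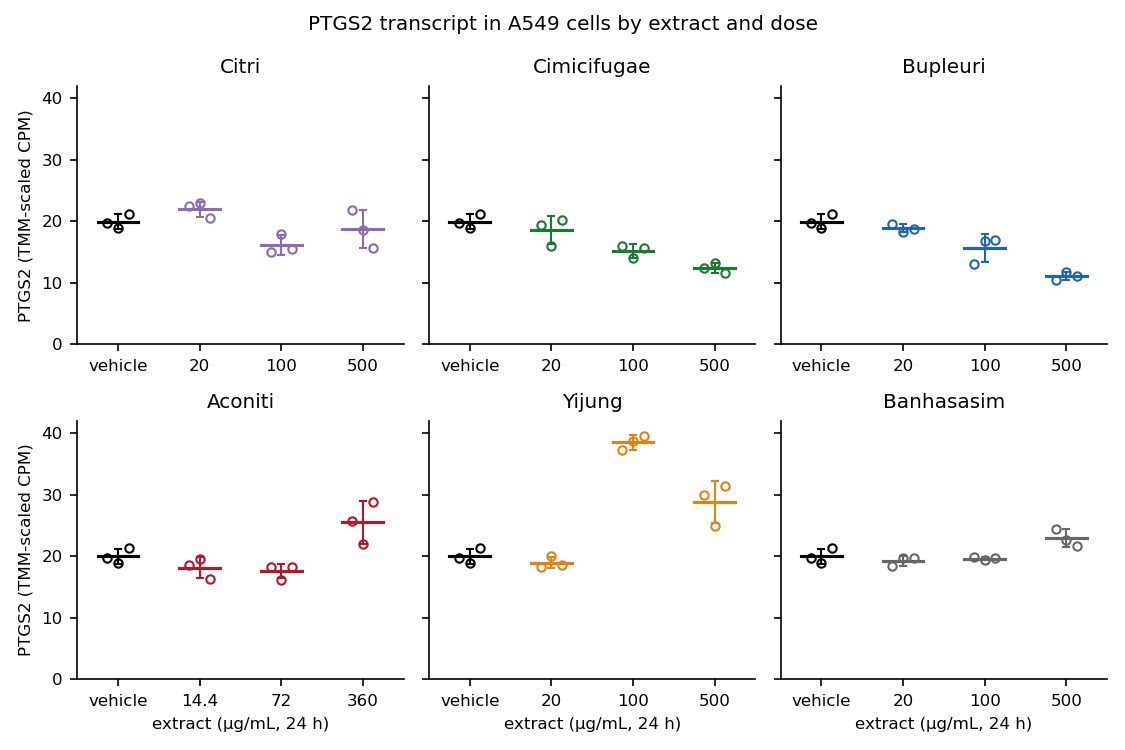
PTGS2 in TMM-scaled CPM (vertical axis) against dose in µg/mL (horizontal axis, categories) for 6 extracts, with the same 3 vehicle libraries at the left of each panel; circles are libraries, bars the mean and error bars the SD of 3 libraries. The 3 Yijung libraries at 100 µg/mL sit between 37.2 and 39.5 CPM, and the 3 Bupleuri libraries at 500 µg/mL between 10.5 and 11.7 CPM.

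Comparisons between doses of an extract hold no vehicle library and stay within a set. Those with a high dose use the high-dose libraries whose PTGS2 levels in part chose the list. Their PTGS2 p-values, for every extract, are therefore not independent of that choice. Yijung medium exceeded Yijung low by 1.02 ± 0.10 on the log2 scale, a ratio of 2.03 (adjusted p = 4.61e-10, edgeR's quasi-likelihood test, adjusted after Benjamini-Hochberg over 17269 genes, as for every adjusted p below). This comparison was added after the values had been seen. Yijung high exceeded Yijung low by 0.60 ± 0.10 (edgeR adjusted p = 5.44e-05). Yijung high was lower than Yijung medium by a log2 fold of −0.42 ± 0.10 (edgeR adjusted p = 0.0187). This call was lost in its 6 libraries alone (adjusted p = 0.488), without Yijung high replicate 2 (log2 fold −0.32, adjusted p = 0.242), without medium replicate 2 (adjusted p = 0.0889) or without medium replicate 3 (adjusted p = 0.0818).

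The 3 Bupleuri high libraries had 10.5, 11.7 and 11.2 CPM of PTGS2, against 19.6, 18.2 and 18.8 CPM at the low dose of the same extract. Every high-dose library lay below every low-dose one, and the medium dose lay between them with 12.98, 16.8 and 17.0 CPM. PTGS2 fell by 0.76 ± 0.11 on the log2 scale at high against low dose (edgeR adjusted p = 1.93e-05). This test shares the high-dose libraries with the comparison that brought PTGS2 to notice. At high against medium dose the log2 fold was −0.49 ± 0.11 (edgeR adjusted p = 0.0458), a call lost when any of 5 of its 6 libraries was left out (adjusted p up to 0.553). In bulk RNA, less PTGS2 message per cell and fewer cells that carry it cannot be told apart.

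Cimicifugae gave a like series with 19.4, 16.0 and 20.3 CPM at the low dose, 16.0, 13.95 and 15.6 CPM at the medium dose and 12.4, 13.2 and 11.6 CPM at the high dose. The high-dose libraries lay below all others of this extract and below all vehicle libraries. PTGS2 fell by 0.58 ± 0.11 on the log2 scale at high against low dose (edgeR adjusted p = 7.63e-04), a call lost when its 6 libraries were fitted alone (adjusted p = 0.191). Against vehicle the high dose had a log2 fold of −0.69 ± 0.11.

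PTGS2 rose at the high dose of Aconiti. The libraries had 18.6, 19.5 and 16.2 CPM at the low dose, 18.3, 16.2 and 18.3 CPM at the medium dose and 25.7, 21.9 and 28.9 CPM at the high dose. No high-dose library overlapped the others of the extract, and the log2 fold was 0.49 ± 0.10 against the low dose (edgeR adjusted p = 3.23e-04) and 0.54 ± 0.10 against the medium dose (edgeR adjusted p = 1.93e-04). Against vehicle it was 0.36 ± 0.10, and 0.20 on total counts. Against the low dose it was 0.36 on total counts (adjusted p = 0.0142). Bupleuri, in the same set, had a mean of 11.1 ± 0.61 CPM at 500 µg/mL, beside 25.5 ± 3.47 CPM for Aconiti at 360 µg/mL (SD, n = 3 each), and the doses differ.

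Citri and Banhasasim showed no PTGS2 difference past the threshold between doses. Citri high had 21.9, 18.6 and 15.7 CPM and Citri low 22.4, 22.9 and 20.6 CPM, which overlap, with a log2 fold of −0.23 ± 0.10 (edgeR adjusted p = 1). Banhasasim high had 24.5, 22.6 and 21.6 CPM, all above the 18.3, 19.7 and 19.7 CPM of its low dose, with a log2 fold of 0.25 ± 0.10 (edgeR adjusted p = 1).

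At 500 µg/mL, extracts of a set could be compared directly. The PTGS2 p-values here, too, come from the high-dose libraries whose levels in part chose the list. PTGS2 was higher in Citri than in Cimicifugae by 0.60 ± 0.11 on the log2 scale (edgeR adjusted p = 6.57e-04), and the ranges of 15.7 to 21.9 CPM and 11.6 to 13.2 CPM did not overlap. In Yijung against Banhasasim, 24.9 to 31.4 CPM against 21.6 to 24.5 CPM and so without overlap, the log2 fold of 0.33 ± 0.10 missed the threshold (edgeR adjusted p = 0.0521), while DESeq2 gave an adjusted p of 0.047. A test of whether the high-minus-low difference itself differed gave 0.35 ± 0.15 for Citri minus Cimicifugae (edgeR adjusted p = 1) and 0.35 ± 0.15 for Yijung minus Banhasasim (edgeR adjusted p = 0.394), so a different response to dose was not shown for either pair.

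In the order of PTGS2 means over the 19 groups, Yijung medium came first and did not overlap the next group, Yijung high. Yijung high, Aconiti high (25.5 CPM) and Banhasasim high (22.9 CPM) each overlapped the next in the order, and all 3 lay above every vehicle library. On total counts without TMM, Aconiti high (24.4, 20.1 and 25.6 CPM) overlapped vehicle (20.0, 19.5 and 21.5 CPM). From Citri low (22.0 CPM) to Cimicifugae medium (15.2 CPM) every neighbour overlapped the next. Cimicifugae high (12.4 CPM) and Bupleuri high came last, overlapped each other and lay below every library of Cimicifugae medium. All 6 low-dose groups overlapped vehicle, and 5 of the 6 had a mean below that of vehicle, the exception being Citri low. The 3 Bojungikgi libraries, with no replicate, had 22.5, 20.2 and 18.4 CPM from low to high dose, beside 18.9 to 21.3 CPM in vehicle.

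PLA2G4A, which supplies the substrate, fell at the high doses of Bupleuri, Cimicifugae and Aconiti. At the Bupleuri high dose its libraries had 19.9, 21.6 and 22.6 CPM, against 28.2, 30.3 and 34.5 CPM in vehicle, with no overlap, and the log2 fold was −0.53 ± 0.09 (edgeR adjusted p = 3.19e-04). Against the low dose of Bupleuri, whose libraries had 33.8, 31.2 and 31.2 CPM, it was −0.58 ± 0.09 (edgeR adjusted p = 5.90e-05). Both calls held in every alternative run.

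At the Cimicifugae high dose PLA2G4A had 24.3, 23.7 and 24.2 CPM, below all vehicle libraries, with a log2 fold of −0.36 ± 0.09 against vehicle (edgeR adjusted p = 0.0162) and −0.39 ± 0.09 against the low dose (edgeR adjusted p = 0.0107). The call against vehicle was lost without vehicle replicate 2 or 3 or any 1 of the Cimicifugae libraries (adjusted p between 0.0515 and 0.169), and that against the low dose in its 6 libraries alone (0.17) or when replicate 2 or 3 of the high dose or replicate 3 of the low dose was left out (adjusted p up to 0.0624). At 500 µg/mL, Citri, with 34.2, 33.5 and 27.9 CPM, exceeded Cimicifugae by 0.40 ± 0.09 (edgeR adjusted p = 0.00901), a call lost without Citri high replicate 1 or 2 or Cimicifugae high replicate 2 or 3 (adjusted p up to 0.12). The high-minus-low difference of PLA2G4A in Citri minus that in Cimicifugae was 0.258 ± 0.123 and missed the threshold, so a different response to dose was not shown.

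At the Aconiti high dose PLA2G4A had 24.9, 24.5 and 28.6 CPM, which overlapped vehicle, with a log2 fold of −0.25 ± 0.09 (edgeR adjusted p = 0.025). This call was lost without vehicle replicate 3 (adjusted p = 0.179), without Aconiti high replicate 1 (0.0753) or 2 (0.151), and in the fit that takes the length balance as a covariate (0.0524). On total counts there was no overlap, 23.6, 22.4 and 25.3 CPM against 28.7, 31.2 and 34.8 CPM in vehicle, and the log2 fold was −0.41 (adjusted p = 4.35e-04). Against the low dose of Aconiti, with 30.5, 31.7 and 30.8 CPM, it was −0.25 ± 0.09 (edgeR adjusted p = 0.0316), lost when any of 5 of its 6 libraries was left out (adjusted p up to 0.186), and −0.38 on total counts (adjusted p = 0.00106). On total counts the median log2 fold of all genes was itself −0.16 against vehicle and −0.14 against the low dose. The means of PTGS2 and PLA2G4A thus stood on the same side of vehicle in Bupleuri and Cimicifugae at high dose, and on opposite sides in Aconiti. With neither scaling were both genes clear of vehicle in Aconiti, since PLA2G4A overlapped it with TMM and PTGS2 did on total counts. In Yijung, PLA2G4A did not pass the threshold at any dose, with 35.9, 32.4 and 30.7 CPM at the high and 32.8, 29.5 and 27.1 CPM at the medium dose.

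**Figure D2:**
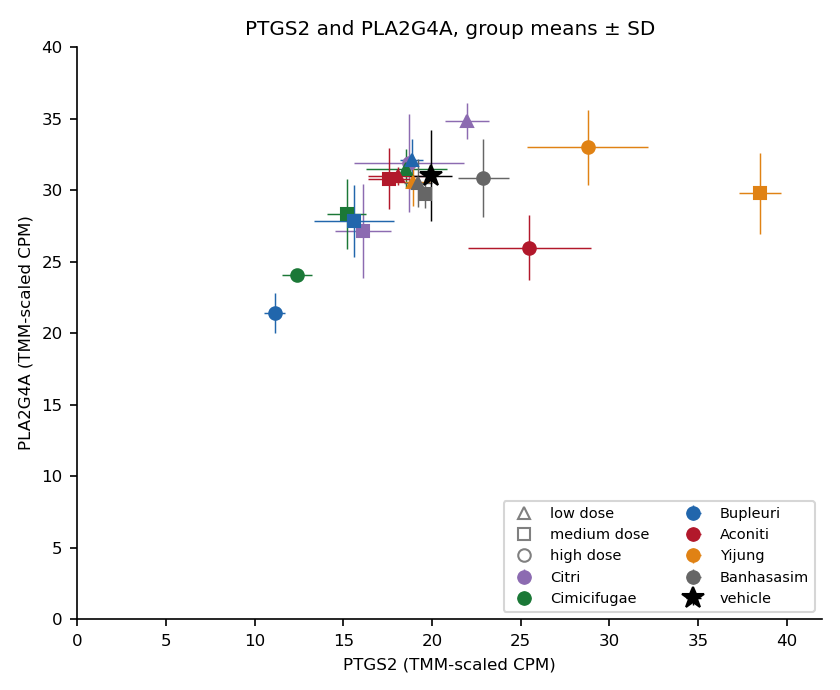
Group means of PTGS2 (horizontal axis) and PLA2G4A (vertical axis) in TMM-scaled CPM, error bars showing the SD of 3 libraries; triangles are low, squares medium and circles high doses, the star is vehicle. Bupleuri high and Cimicifugae high lie lowest for both genes, and Yijung medium lies farthest right at a PLA2G4A level inside the range of vehicle.

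Over the 19 group means, log2 CPM of PTGS2 and PLA2G4A had a Pearson correlation of 0.571, and over the 57 libraries of 0.559. Each pair of values shares its library and scaling. Among 10911 genes averaging at least 5 CPM, PLA2G4A ranked 802nd in likeness to PTGS2 over the groups and 339th over the libraries. The 5 genes most like PTGS2 were PTER (r = 0.878), PLPP3 (0.873), SPRY4 (0.868), COQ10B (0.862) and MAK16 (0.862). Over the 57 libraries they ranked 7th, 2nd, 23rd, 257th and 9th, in the same order. PLPP3, which encodes a lipid phosphate phosphatase, averaged 39.4 CPM at the Yijung medium dose and 36.1 CPM at the high dose, against 27.2 CPM in vehicle. SPRY4, an inhibitor of receptor tyrosine kinase signalling, averaged 12.1 CPM at the Bupleuri high dose and 19.8 CPM at the Yijung high dose, against 14.8 CPM in vehicle. Unlike PTGS2, it was lower at the Yijung medium dose, with 17.9 CPM, than at the high dose.

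PTGES, the inducible prostaglandin E synthase, rose in Yijung. At the high dose its libraries had 22.2, 23.3 and 20.8 CPM and at the medium dose 24.0, 20.5 and 18.99 CPM, against 17.4, 16.9 and 16.7 CPM in vehicle. All 6 lay above vehicle, and the log2 fold was 0.38 ± 0.09 at the high dose (edgeR adjusted p = 0.00587) and 0.32 ± 0.09 at the medium dose (edgeR adjusted p = 0.0233). Against the low dose of Yijung, with 17.1, 16.3 and 18.03 CPM, the high dose exceeded it by 0.37 ± 0.09 (edgeR adjusted p = 0.0094) and the medium dose by 0.31 ± 0.09 (edgeR adjusted p = 0.0354).

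The PTGES call at the high dose against vehicle was lost without Yijung high replicate 2 (log2 fold 0.34, adjusted p = 0.0628), and the one against the low dose without that library (adjusted p = 0.0926) or Yijung low replicate 2 (0.0729). The medium-dose call against vehicle was lost without medium replicate 1 (log2 fold 0.22, adjusted p = 0.271) and without any 1 vehicle library (adjusted p between 0.0547 and 0.0785). The medium-dose call against the low dose was lost without medium replicate 1 (log2 fold 0.21, adjusted p = 0.327) or 2 (0.0606) or low replicate 1 (0.111) or 2 (0.168). Yijung high replicate 2 had a length balance of −0.036, against 0.37 and 0.51 in the other libraries of its group. Yijung medium replicate 1 had 0.12, against 0.45 and 0.56 in its group. No PTGES call in Yijung was lost with the length balance as a covariate. At 500 µg/mL, PTGES was higher in Yijung than in Banhasasim, whose libraries had 17.0, 17.0 and 16.9 CPM, by 0.38 ± 0.09 (edgeR adjusted p = 0.00727), a call lost without Yijung high replicate 2 (adjusted p = 0.0922). The high-minus-low difference of PTGES was 0.378 ± 0.132 larger in Yijung than in Banhasasim (edgeR adjusted p = 0.229), so a different response to dose was not shown.

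In Aconiti, PTGES went the other way from PTGS2. It had 13.6, 16.5 and 14.9 CPM at the high dose against 18.7, 17.3 and 20.0 CPM at the low dose, with no overlap, and fell by 0.31 ± 0.09 on the log2 scale (edgeR adjusted p = 0.0119), a call lost without Aconiti high replicate 1 or 3 or low replicate 3 (adjusted p between 0.0712 and 0.0937). Against vehicle PTGES did not pass the threshold, but with the length balance as a covariate its log2 fold was −0.33 (edgeR adjusted p = 3.81e-05), and on total counts −0.34 (adjusted p = 0.00106). On total counts the median of all genes was itself −0.16 there.

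HPGD, which degrades prostaglandin E2, also rose at the Yijung high dose. Its libraries had 95.0, 102.3 and 96.3 CPM, against 73.8, 75.5 and 79.8 CPM in vehicle, with no overlap and a log2 fold of 0.36 ± 0.06 (edgeR adjusted p = 3.22e-05). Against Yijung low, with 78.4, 75.5 and 75.4 CPM, the log2 fold was 0.36 ± 0.06 (edgeR adjusted p = 4.04e-05), and neither call was lost in any alternative. At the Yijung medium dose HPGD had 87.6, 82.4 and 74.9 CPM, which overlapped vehicle.

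The high dose of Yijung exceeded its medium dose in HPGD by 0.26 ± 0.06 (edgeR adjusted p = 0.0132), whereas PTGS2 was lower at the high than at the medium dose. That HPGD call was lost without Yijung high replicate 2 or medium replicate 2 or 3 (adjusted p up to 0.179). At 500 µg/mL, HPGD was higher in Yijung than in Banhasasim (82.5, 84.2 and 78.2 CPM) by 0.26 ± 0.06 (edgeR adjusted p = 0.00414), a call lost without Yijung high replicate 2 (adjusted p = 0.0668). The high-minus-low difference of HPGD was 0.265 ± 0.085 larger in Yijung than in Banhasasim (edgeR adjusted p = 0.148), so a different response to dose was not shown. With TMM scaling, HPGD passed the threshold in no comparison without a Yijung group. On total counts it was lower at Aconiti high against vehicle (log2 fold −0.19, edgeR adjusted p = 0.00203) and against Aconiti low (−0.15, edgeR adjusted p = 0.0221). The median log2 fold of all genes on total counts was −0.16 and −0.14 in these comparisons. HPGD thus moved about as the median gene did.

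**Figure D3:**
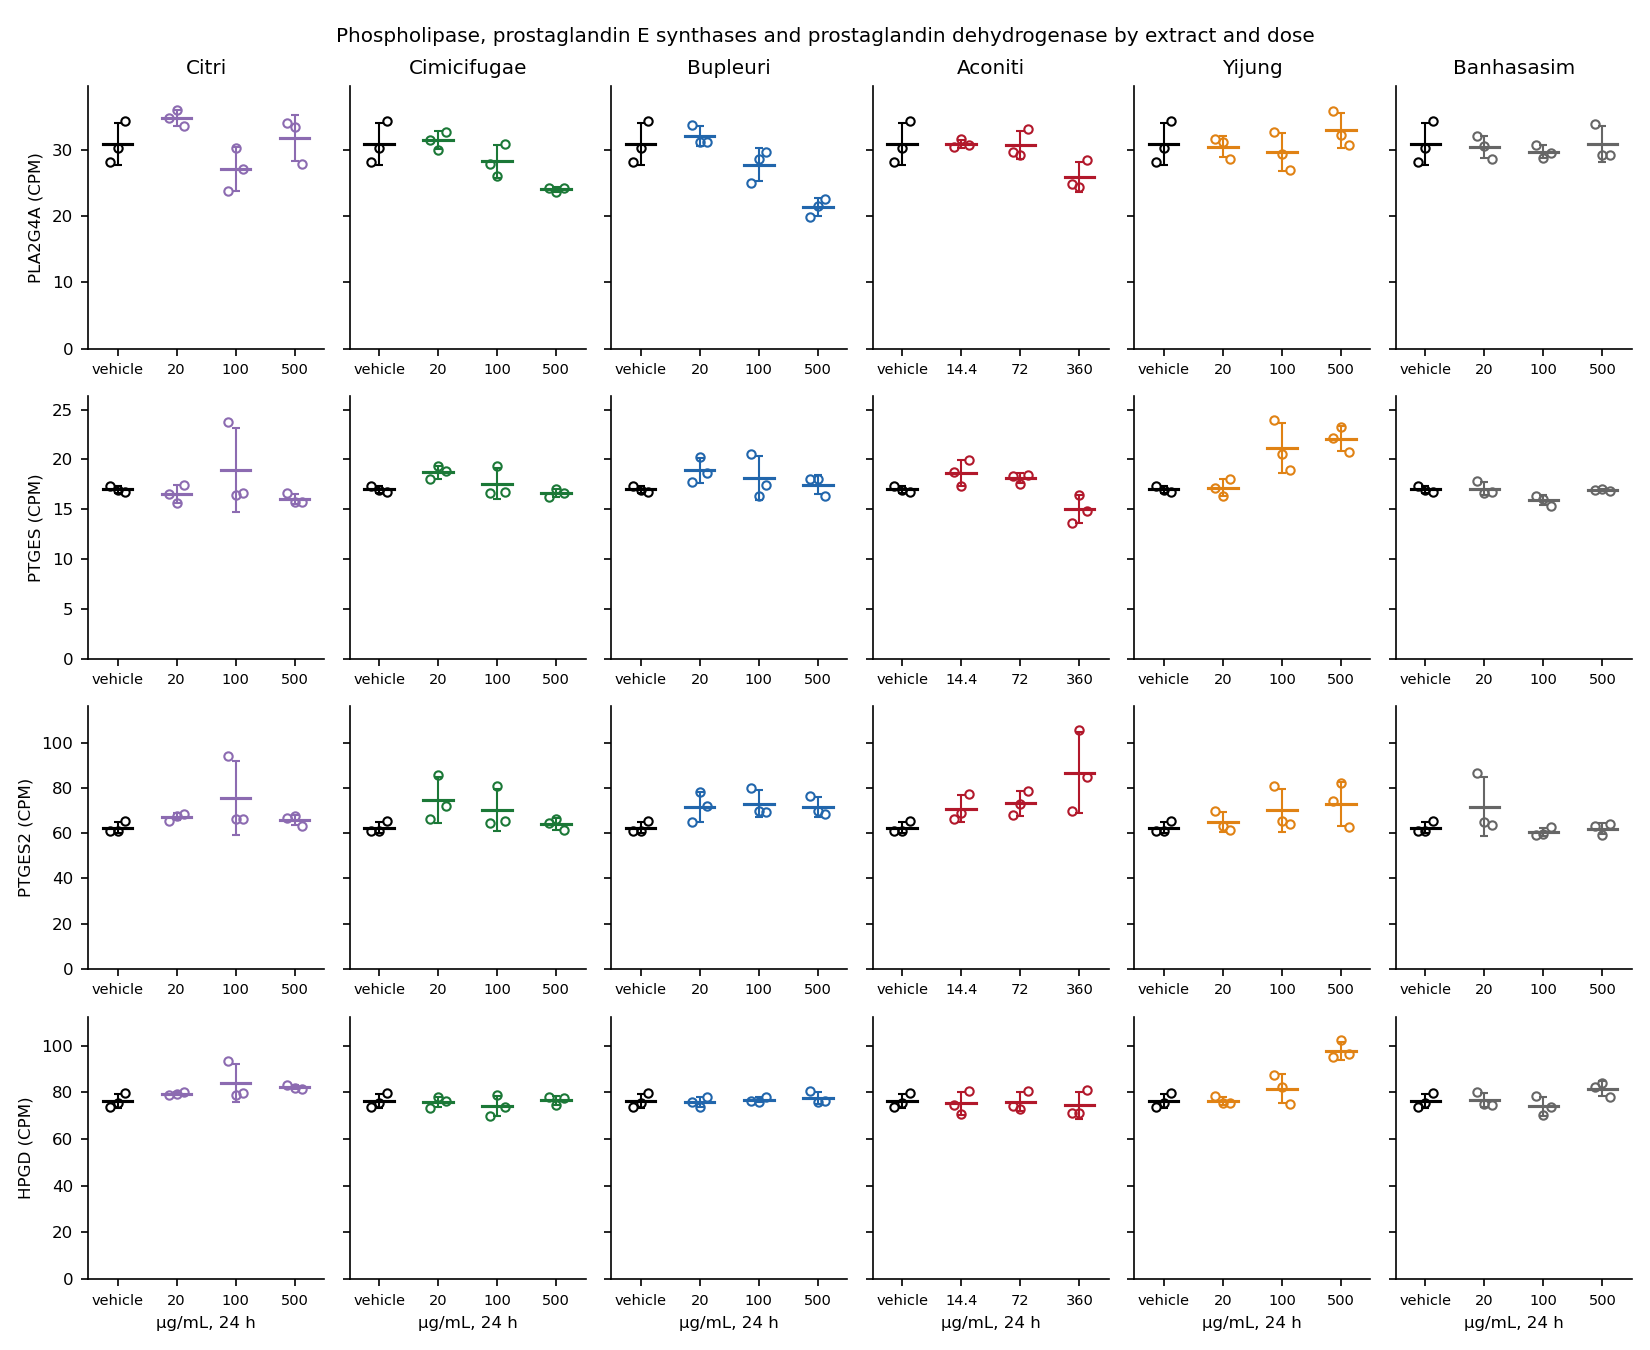
PLA2G4A, PTGES, PTGES2 and HPGD (rows) in TMM-scaled CPM against dose in µg/mL for 6 extracts (columns), with vehicle at the left; circles are libraries, bars the mean and error bars the SD of 3 libraries. HPGD at Yijung 500 µg/mL lies between 95.0 and 102.3 CPM, above all vehicle libraries, and PTGES2 spreads between 70.1 and 105.6 CPM at Aconiti 360 µg/mL.

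PTGES2, the membrane-associated second synthase, rose in Aconiti at high dose. Its libraries had 70.1, 105.6 and 84.8 CPM, against 61.1, 61.0 and 65.2 CPM in vehicle, with no overlap but wide spread, and the log2 fold was 0.48 ± 0.13 (edgeR adjusted p = 0.00283). The call was lost without Aconiti high replicate 2 (log2 fold 0.33, adjusted p = 0.0664). That library had the third lowest length balance of the 60, and the lowest, Citri medium 1, had 94.4 CPM of PTGES2 while the other 2 of its group had 66.2 and 66.4 CPM. Over 57 libraries the log2 CPM of PTGES2 and the length balance had a Pearson correlation of −0.896 and a Spearman correlation of −0.88, both being computed from the same counts. For PTGS2 the Pearson correlation with the balance was 0.199, for PLA2G4A 0.199, for HPGD −0.299 and for PTGES −0.495. With the balance as a covariate the Aconiti log2 fold of PTGES2 was 0.24 (edgeR adjusted p = 3.20e-04), and on total counts it was 0.32 (adjusted p = 0.0166).

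With TMM scaling neither receptor passed the threshold against vehicle in any group, while on total counts PTGER4 did at Aconiti high (log2 fold −0.64, adjusted p = 0.0198). The median log2 fold of all genes with that scaling was −0.16 there. PTGER4, encoding EP4, had 1.11, 0.823 and 1.06 CPM at the Aconiti high dose against 1.70, 1.31 and 1.47 CPM at the low dose, with no overlap and a log2 fold of −0.57 ± 0.22 (edgeR adjusted p = 0.048). This call was lost under RLE scaling (adjusted p = 0.0507), under DESeq2 (0.0913), with mitochondrial genes removed (0.0539) and without Aconiti high replicate 2 (0.237) or 3 (0.0926) or low replicate 1 (0.196) or 3 (0.0802). PTGER4 lies inside the gene TTC33 on the opposite strand, which averaged 14.2 CPM, and since the strand setting of the counting is not given in the sources used here its counts are uncertain. PTGER2, encoding EP2, had between 0.0464 and 0.792 CPM in a library.

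Counted without PTGS2, 2 of 6 members rose at the Yijung high dose against vehicle (PTGES and HPGD), where 7.09% of all genes tested were called in either direction. At the Yijung medium dose it was 1 of 6 (PTGES), with 7.85% of all genes called. In Bupleuri 1 of 6 fell at the high dose (PLA2G4A) where 0.712% of all genes were called, and in Cimicifugae 1 of 6 (PLA2G4A) where 1.97% were. In Aconiti 2 of 6 were called (PTGES2 higher, PLA2G4A lower), with 32.7% of all genes called, which is a share near the background. On total counts 5 of 6 were called there (PTGES2 higher, PLA2G4A, PTGES, HPGD and PTGER4 lower), with 38.8% of all genes called. The median log2 fold of all genes was itself −0.16 with that scaling. None of 6 was called in Citri, with 0.0463% of all genes called, or in Banhasasim, with 0.185%. These comparisons share the same 3 vehicle libraries.

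The counts between doses include PTGS2, and those with a high dose share the high-dose libraries with the values that helped choose it. Between doses, 3 of 7 members were higher at Yijung high than low (PTGS2, PTGES and HPGD) where 4.93% of all genes were called, and 2 of 7 were higher at Yijung medium than low (PTGS2 and PTGES) where 6.31% were. At high against low dose, 2 of 7 were lower in Bupleuri and the same 2, PTGS2 and PLA2G4A, in Cimicifugae, where 0.353% and 1.34% of all genes were called. Without PTGS2 it was 1 of 6 in each, 2 of 6 were higher at Yijung high than low, and 1 of 6 (PTGES) at Yijung medium than low. The medium-against-low comparison was added after the values, those of PTGS2 among them, had been seen. In Aconiti 4 of 7 were called between high and low dose, PTGS2 higher and PLA2G4A, PTGES and PTGER4 lower, with 22.7% of all genes called. Without PTGS2 it was 3 of 6. On total counts 30% of all genes were called there, HPGD among them. In Citri and Banhasasim none of 7 was, with 0.0232% and 0.127% of all genes called.

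At high against medium dose 1 of 7 was called in Bupleuri (PTGS2, lower) with 0.11% of all genes, 1 of 7 in Aconiti (PTGS2, higher) with 12.5%, and 2 of 7 in Yijung (HPGD higher, PTGS2 lower) with 1.08%. None of 7 was in Citri, Cimicifugae and Banhasasim, where 0.0174%, 0.226% and 0.0579% of all genes were called. At 500 µg/mL, 2 of 7 were higher in Citri than in Cimicifugae (PTGS2 and PLA2G4A) with 0.689% of all genes called. In Yijung against Banhasasim 2 of 7 were higher (PTGES and HPGD), with 4.79%. The counts with a high dose include PTGS2, whose high-dose levels in part chose the list, so they are not independent of that choice. Apart from PTGS2, PLA2G4A was the only member called between Citri and Cimicifugae. At high against medium dose, no member apart from PTGS2 was called in Bupleuri or Aconiti, and only HPGD was in Yijung. At medium against low dose none of 7 was called in Citri (0.00579% of all genes), Cimicifugae (0.0116%), Bupleuri (0%), Aconiti (0.521%) and Banhasasim (0%).

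At the medium dose against vehicle, none of the 6 members other than PTGS2 was called in Citri (0.0174% of all genes), Cimicifugae (0.0347%), Bupleuri (0%), Aconiti (2.31%) or Banhasasim (0%). At the low dose none was in Citri (0.00579%), Cimicifugae (0.0116%), Bupleuri (0%), Aconiti (0.0695%), Yijung (0.0116%) or Banhasasim (0%).

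**Figure D4:**
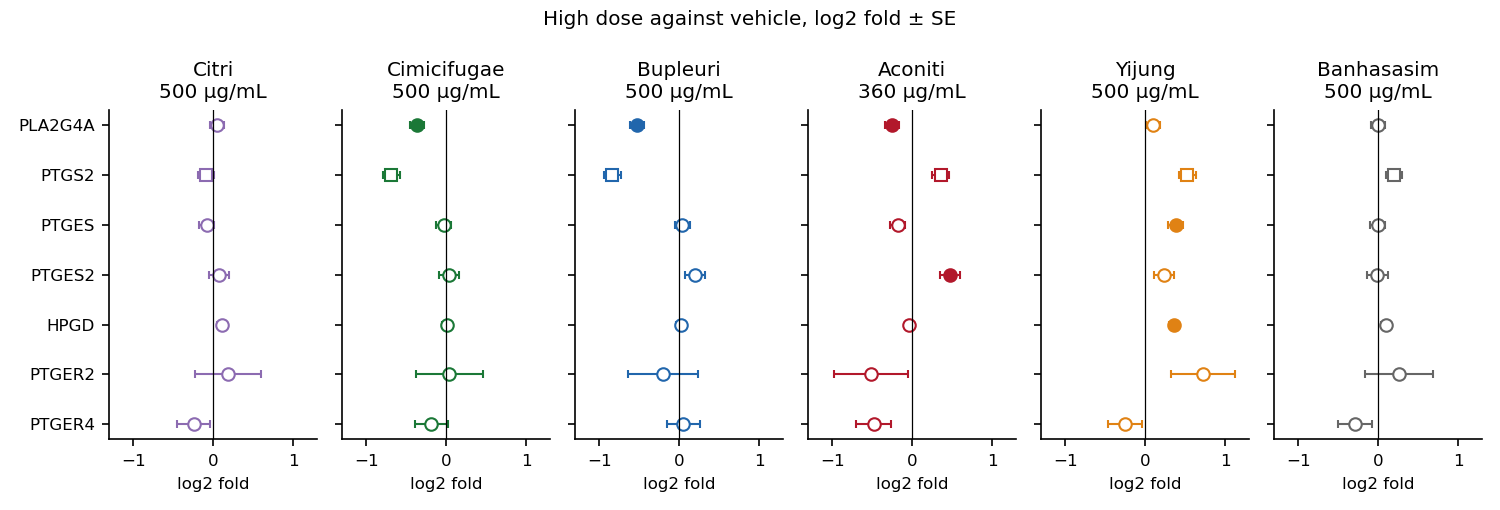
Log2 fold of each member at the high dose against vehicle (horizontal axis) for 6 extracts, with SE as error bars; filled circles passed edgeR's adjusted p threshold of 0.05, open circles did not, and squares mark PTGS2, shown without a test. PTGES and HPGD are filled and above 0 in Yijung, and PLA2G4A is filled and below 0 in Cimicifugae, Bupleuri and Aconiti.

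Other genes of the pathway were counted in lists that were drawn up with earlier results of these data known, all at high dose against vehicle. Of 6 tested phospholipases listed for the release of arachidonate, 1 fell in Bupleuri, in Cimicifugae and in Aconiti, PLA2G4A each time, and 1 rose in Aconiti. Of 8 tested terminal synthases, 3 rose and 1 fell in Aconiti and 1 rose in Yijung, with list medians of 0.0033 and 0.14 on the log2 scale, where all genes had −0.0046 and 0.0016. In all lists the counts stand beside 32.7% of all genes called in Aconiti, 7.09% in Yijung, 1.97% in Cimicifugae and 0.712% in Bupleuri. No list was tested as a whole. AKR1B1, an aldose reductase that can make prostaglandin F2alpha, averaged 839 ± 142 CPM in Aconiti against 607 ± 17.5 CPM in vehicle (SD, n = 3 each), a log2 fold of 0.47 ± 0.13 (edgeR adjusted p = 0.00589) that was lost without Aconiti high replicate 2 (adjusted p = 0.0703) and was 0.21 with the length balance as a covariate (adjusted p = 2.11e-04) and 0.31 on total counts (0.0287). PTGES3, the cytosolic synthase and HSP90 co-chaperone p23, fell by 0.24 ± 0.08 on the log2 scale in Aconiti (edgeR adjusted p = 0.0138), lost without Aconiti high replicate 1 (0.118), and by 0.37 with that covariate (adjusted p = 8.31e-12) and 0.40 on total counts (7.96e-07). The median log2 fold of all genes on total counts was −0.16 in Aconiti.

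Of 7 tested genes of transport and inactivation, 1 fell in Aconiti, ABCC4, a transporter that carries prostaglandins out of the cell. It averaged 63.5 ± 7.89 CPM in Aconiti against 91.1 ± 3.91 CPM in vehicle (SD, n = 3 each), with a log2 fold of −0.52 ± 0.12 (edgeR adjusted p = 9.47e-04), and −0.31 with the covariate (adjusted p = 4.98e-05). HPGD was the 1 that rose in Yijung. Of 5 tested receptor genes, PPARG, a nuclear receptor that binds prostaglandin derivatives, rose in Yijung by 0.26 ± 0.08 (edgeR adjusted p = 0.0298) and in Aconiti by 0.25 ± 0.08 (edgeR adjusted p = 0.0102). The Aconiti call was lost without vehicle replicate 1 (adjusted p = 0.0735) and on total counts (0.274), and the Yijung call on total counts (0.0526) and without vehicle replicate 1 or 2 or Yijung high replicate 1 or 2 (adjusted p up to 0.205). The receptor list had a median log2 fold of −0.25 in Yijung and 0.03 in Aconiti, and the transport list −0.017 and −0.036 there.

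Of 15 tested genes known to be induced through cyclic AMP and CREB, the messenger route of EP2 and EP4, 6 rose and 2 fell in Yijung, and 4 rose and 5 fell in Aconiti, where 32.7% of all genes were called, against 7.09% in Yijung. In Cimicifugae 3 fell, in Bupleuri 2, in Banhasasim 2 and in Citri 1, with none rising in these 4. Of all genes, 1.97%, 0.712%, 0.185% and 0.0463% were called there, in the same order. The gene in Citri was NR4A1 (log2 fold −0.40, edgeR adjusted p = 0.013), a call lost without vehicle replicate 1 or 3 or any Citri high library (adjusted p up to 0.131). The list's median log2 fold was 0.31 in Yijung, where the median of all genes tested was 0.00161, and −0.12 in Cimicifugae, where it was 0.00489. NR4A1, an orphan nuclear receptor induced within minutes of stimulation, averaged 15.0 ± 1.14 CPM in Cimicifugae, 19.8 ± 1.07 CPM in Bupleuri, 24.9 ± 3.36 CPM in Aconiti, 45.6 ± 0.84 CPM in Yijung and 24.3 ± 1.54 CPM in Banhasasim, against 36.9 ± 1.05 CPM in vehicle (SD, n = 3 each). It thus fell in Aconiti (log2 fold −0.57, edgeR adjusted p = 6.89e-08), and in Banhasasim (−0.60, edgeR adjusted p = 2.10e-06), while the PTGS2 libraries of both lay above vehicle with TMM scaling. A link of NR4A1 to the PTGS2 level was not tested.

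AREG and EREG, ligands of the epidermal growth factor receptor, rose in Aconiti and Yijung. EREG averaged 328 ± 44.3 CPM in Aconiti and 252 ± 26.5 CPM in Yijung, against 160 ± 3.37 CPM in vehicle (SD, n = 3 each), with log2 folds of 1.03 ± 0.09 (edgeR adjusted p = 1.74e-12) and 0.65 ± 0.09 (edgeR adjusted p = 8.40e-07). NR4A3, of the same family as NR4A1, fell in 5 of the 6 extracts, the exception being Citri (log2 fold −0.46, edgeR adjusted p = 0.569). Its Banhasasim call (log2 fold −0.64, edgeR adjusted p = 0.0289) was lost without vehicle replicate 1 or 2 or any Banhasasim high library (adjusted p up to 0.209) and on total counts (0.0957). In Yijung its fold was thus opposite to that of NR4A1.

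Of 18 tested factors known to act at the PTGS2 promoter or message, 5 rose and 1 fell in Yijung, 5 rose and 3 fell in Aconiti, 1 rose in Bupleuri and none was called in the other 3. The 8 of 18 in Aconiti stand beside 32.7% of all genes called, the 6 of 18 in Yijung beside 7.09% and the 1 of 18 in Bupleuri beside 0.712%. The list medians were −0.0062 in Yijung and −0.031 in Aconiti on the log2 scale, near those of all genes. EGR1, an immediate early transcription factor, averaged 5.10 ± 0.15 CPM in Yijung and 3.09 ± 0.70 CPM in Aconiti, against 1.55 ± 0.16 CPM in vehicle (SD, n = 3 each), with log2 folds of 1.71 ± 0.18 (edgeR adjusted p = 2.11e-09) and 0.99 ± 0.19 (edgeR adjusted p = 5.91e-05). CEBPB rose in Aconiti by 1.34 ± 0.22 (edgeR adjusted p = 6.74e-06). Its Yijung call (log2 fold 0.70, edgeR adjusted p = 0.0445) was lost without Yijung high replicate 2 (log2 fold 0.37, adjusted p = 0.54) or any 1 vehicle library (adjusted p up to 0.233).

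JUN, a subunit of AP-1, rose in Aconiti by 0.96 ± 0.07 (edgeR adjusted p = 1.30e-14) and in Yijung by 0.40 ± 0.07 (edgeR adjusted p = 9.82e-05). In Bupleuri JUN rose by 0.32 ± 0.07 (edgeR adjusted p = 0.0152), a call lost without vehicle replicate 1 (adjusted p = 0.156) or 3 (0.0522) or Bupleuri high replicate 1 (0.127) or 3 (0.0671), and on total counts (0.0735). A link of JUN to the PTGS2 level was not tested. NFATC2, a calcium-regulated factor, fell in Aconiti by 0.76 ± 0.20 on the log2 scale (edgeR adjusted p = 0.00247), and by 0.46 with the length balance as a covariate (adjusted p = 0.00252).

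**Figure D5:**
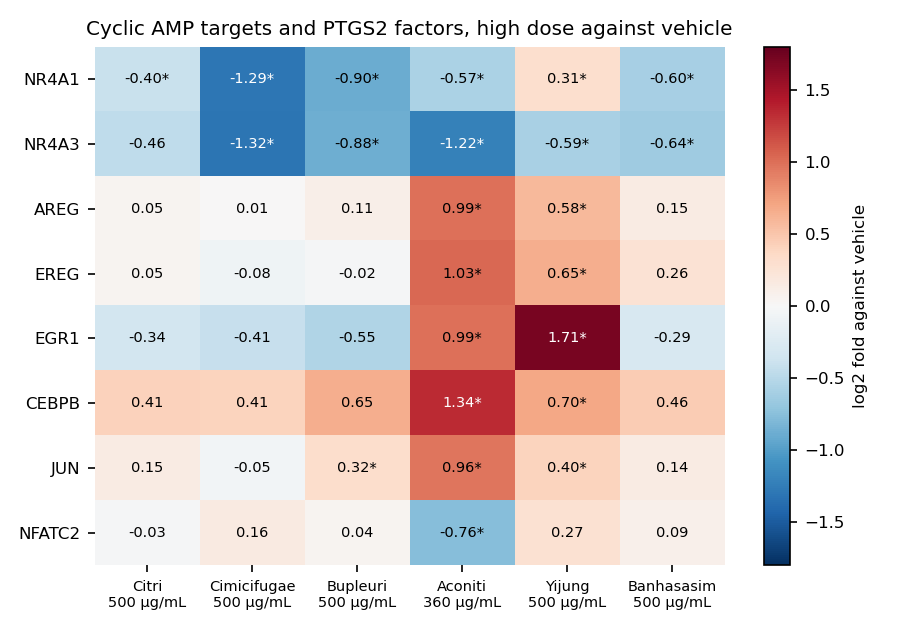
Log2 fold at the high dose against vehicle for 4 cyclic AMP target genes (NR4A1, NR4A3, AREG and EREG) and 4 factors known to act on PTGS2 (rows) in 6 extracts (columns), with red above and blue below 0 and an asterisk where edgeR's adjusted p was under 0.05. EGR1, AREG, EREG and JUN are above 0 with an asterisk in Aconiti and Yijung.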

How the data were processed

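The libraries are directional messenger RNA libraries read as 100 bp pairs, per the labels' protocols. FastQC 0.11.9, Trim Galore 0.6.5, STAR 2.7.3a, RSEM 1.3.3 and the build GRCh38 are named in the submitters' processing notes. Which annotation release was counted on, and with which strand setting, is not given in the sources used here. The authors deposited expected counts per gene as RSEM writes them, not normalized, of which 9.37% were not whole. The deposited table had 269 sample columns, of which 60 matched a label and 209 were not used. Symbols and coordinates came from GENCODE 29, promoter sequences from RefSeq (GRCh38.p14).

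Counts were rounded and fitted in 1 edgeR 4.0.16 quasi-likelihood model (R 4.3.3) to 57 libraries in 19 groups, with TMM scaling and edgeR's low-count filter, which kept 17269 genes. The threshold was a Benjamini-Hochberg adjusted p of 0.05 over all genes of a comparison. The SE of a log2 fold is its size over the square root of F. Bojungikgi stayed outside the model.

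Members and lists were chosen with earlier results of these data known. Named list genes passed the threshold at high dose in at least 1 extract and reached 5 CPM in either group, up to 4 per list by fold size. Likeness to PTGS2 was Pearson's r of log2(CPM + 0.1). Medium-against-low comparisons, tests between dose effects and the fit on total counts without TMM were added after the values had been seen. Other alternatives were RLE scaling, DESeq2 1.42.0, no low-count filter, the 6 libraries compared alone, a replicate block, the length balance as a covariate, mitochondrial genes removed, and each library left out in turn.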

Additional observations from a re-analysis of the deposited data

How the results depend on the processing

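Over all alternatives, PTGS2 kept its side of the threshold in Yijung medium and high against low, Bupleuri high against low, Aconiti high against low and medium, and Citri against Cimicifugae at high dose. The PTGS2 log2 fold of Bupleuri high against medium lost its call under RLE scaling (−0.49, adjusted p = 0.0596), with no low-count filter (−0.48, 0.0969), on total counts (−0.46, 0.206), with a replicate block (−0.49, 0.0639) and in its 6 libraries alone (−0.49, 0.485), and ran between −0.60 and −0.42 with 1 library left out. In their 6 libraries alone, Cimicifugae high against low (−0.58, 0.191) and Yijung high against medium (−0.42, 0.488) were lost too, in a fit with fewer samples. So were PLA2G4A in Cimicifugae high against low and in Aconiti high against vehicle and low, PTGES in Yijung medium against vehicle and in Yijung medium and high against low and Aconiti high against low, HPGD in Yijung high against medium and against Banhasasim, and PTGER4. Yijung high against medium ran between −0.49 and −0.32 with 1 library left out. With the length balance as a covariate, PTGS2 passed in Cimicifugae high against medium (−0.33, 0.0473) and in Yijung against Banhasasim at high dose (0.39, 0.000777), and calls were gained for PLA2G4A in Bupleuri and Aconiti high against medium, PTGES in Aconiti high against vehicle and medium, and PTGES2 in Aconiti high against low and medium. The untested PTGS2 log2 fold moved to −0.18 in Citri medium and 0.0025 in Bupleuri low against vehicle with that covariate, and to 0.20 in Aconiti high and −0.31 in Aconiti medium against vehicle on total counts, where PLA2G4A and PTGES also passed in Aconiti high against medium. The length covariate also turned the uncalled PTGES2 log2 fold to 0.059 in Citri high against medium and −0.057 in Citri medium against low. DESeq2 gave 0.32 (0.047) for Yijung against Banhasasim, which ran between 0.26 and 0.42 with 1 library left out, past the threshold without Citri medium replicate 1 or Yijung high replicate 2. Citri medium against low ran between −0.53 and −0.40, past the threshold without Citri medium replicate 2. With no low-count filter, which tests more genes, calls were also lost for PLA2G4A in Cimicifugae and Aconiti high against vehicle and Aconiti high against low, for PTGES in Yijung medium against vehicle and low, for HPGD in Yijung high against medium and against Banhasasim, and for PTGER4. The other causes were not tested.

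Replicate numbers were not taken as pairing: deviations from the group mean had a median correlation of 0.0121 over 513 same-numbered pairs, of which 208 were over 0.1. These ran between −0.772 and 0.856, and pairs with other numbers had a median of −0.00204. The median pools pairs within and across sets, so it cannot exclude pairing within a set. The replicate block changed no other call of a member. On total counts, Banhasasim high and Aconiti high exchanged places in the order of PTGS2 means, and Citri high moved above Yijung low and Bupleuri low. Depth limits the receptors, with at most 22 counts of PTGER2 and 48 of PTGER4 in a library.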
